A study of Rattus norvegicus with 6 samples.

Results

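Ligand genes of the TGF-beta superfamily, 10 in all, were examined in rat myocardium, namely Tgfb1, Tgfb2, Tgfb3, Inhba, Inhbb, Gdf15, Bmp2, Bmp4, Bmp6 and Bmp10. They were chosen by gene family and found by symbol, which gave 1 row each among the 32623 genes of the deposited table. All 10 of them were among the 13964 genes that reached 0.5 FPKM on average, where FPKM (fragments per kilobase of gene, scaled to sequencing depth) is a level per gene length. Total RNA was sequenced in 3 sham samples and in 3 samples after ligation of the left anterior descending (LAD) coronary artery, called ischemia, and the label of each sample, sham included, gave 30 min. All animals were wild type and described as male, and the samples were labelled as myocardial tissue with no strain, age or region of the heart given. The comparison of ischemia with sham addressed which genes changed in the ischemic heart.

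The TGF-beta superfamily consists of secreted dimers that are made as precursors and bind pairs of type I and type II receptor kinases. TGF-beta and activins signal mainly through Smad2 and Smad3, BMPs mainly through Smad1, Smad5 and Smad9, and both routes share Smad4. In the heart TGF-beta is best known for driving scar formation by fibroblasts, BMP10 is a product of atrial muscle, and GDF15 is a circulating stress signal whose receptor lies in the hindbrain.

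Total counts ranged from 68529126 to 79591989 per library, so that 3 counts, taken as the floor of detection for counting error alone, amounted to at most 0.0438 CPM (counts relative to the library total). Several libraries stood apart from their group. The summed FPKM of 6 atrial muscle markers was 48514 and 39331 in sham replicates 1 and 3, against 257.5 in sham replicate 2 and 1294 to 9656 in ischemia. Reads on 4 Y-linked genes numbered 26 in sham replicate 1 and 1772 to 4366 elsewhere, so that this library goes against the description of the animals as male, and results without it are given with the left-out libraries. The summed FPKM of 12 neutrophil and monocyte markers was 134.1 to 221.8 in sham and 1404, 9285 and 2246 in ischemia replicates 1 to 3, and 10 of these 12 genes passed the test, all higher. Whether the labelled 30 min bears on this level was not tested. A set of 4 lung epithelium markers summed to 410.6 in ischemia replicate 1 and to at most 15.1 elsewhere. In bulk tissue, fewer cells of a type and less RNA per cell cannot be told apart.

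Inhbb, which encodes the beta chain of activin B, rose in ischemia, and Bmp6, a BMP ligand known for its part in iron control, fell. With the quasi-likelihood test of edgeR on counts, adjusted over all tested genes, 1 of the 10 ligands was higher and 1 was lower at an adjusted p under 0.05, against 5.18% higher, 1.53% lower and 6.71% in either direction among all tested genes. The median log2 fold change of the 10 ligands was 1.48, within a range of -7.50 to 4.78, beside -0.0015 over all tested genes. With 1 library left out it went from 0.99 (without ischemia replicate 2) to 1.79 (without ischemia replicate 1). It was 0.34 over the 7 ligands at a mean FPKM of at least 5. The 6 further tested ligands of the superfamily had a median of -0.38. In 4 ligands (Tgfb1, Inhbb, Gdf15 and Bmp2) each ischemia library lay above each sham library, against 23.6% of all tested genes, and in 2 ligands (Bmp6 and Bmp10) each lay below, against 15.0% (38.6% in either direction). For Tgfb2, Tgfb3, Inhba and Bmp4 the groups overlapped. With DESeq2, which called 2071 genes higher and 1742 lower in all, Tgfb1, Inhba, Gdf15 and Bmp2 also passed, at DESeq2 adjusted p-values of 0.00638, 0.00311, 0.0314 and 0.00886. Ischemia replicate 2 held the highest level of 6 of the 10 ligands, and sham replicate 3 that of 3.

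**Figure D1:**
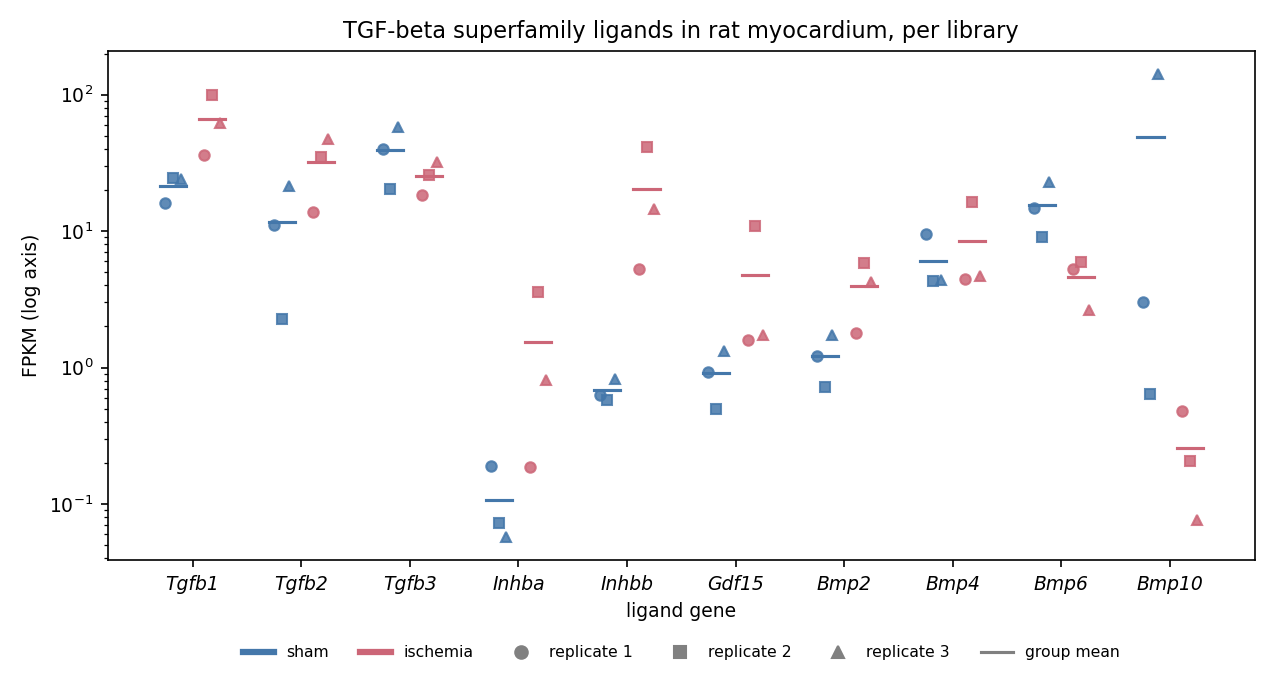
FPKM of the 10 ligand genes on a log axis, with 1 point per library, the replicate number as marker shape and the group mean as a horizontal bar. Inhbb and Bmp6 separate by group, and the sham mean of Bmp10 lies far above 2 of its 3 points because sham replicate 3 is at 142.1.

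The order of the ligands, compared per gene length as FPKM, differed between the groups. In sham the highest means were Bmp10 at 48.6, Tgfb3 at 39.5 and Tgfb1 at 21.5. Bmp10 came first through sham replicate 3 at 142.1, and was at 3.0 and 0.645 in sham replicates 1 and 2. The lowest means were Gdf15 at 0.918, Inhbb at 0.681 and Inhba at 0.107. Neighbours in this order overlapped in range, except that Bmp4 lay above Bmp2 and Inhbb above Inhba. In ischemia the highest means were Tgfb1 at 66.1, Tgfb2 at 31.9, Tgfb3 at 25.3 and Inhbb at 20.5, while Bmp10 was last at 0.256. All neighbours overlapped in range in ischemia.

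The activin beta chains form activin A (from Inhba) and activin B (from Inhbb), or inhibins when paired with the alpha chain from Inha. The table places Inhbb at positions 35436532 to 35442222 of chromosome 13 (minus strand), in a build that was not stated. Replicates 1 to 3 had an FPKM of 0.632, 0.581 and 0.831 in the sham group, compared with 5.29, 41.5 and 14.6 under ischemia. The sham libraries lay close together, and the lowest ischemia library was above each of them. The means were 0.681 ± 0.132 (SD, n = 3) and 20.5 ± 18.8 (SD, n = 3), and edgeR gave a log2 fold change of 4.78 ± 0.75 (SE) at an adjusted p of 0.0317. The exact permutation p of the FPKM was 0.1, the smallest that 3 samples against 3 allow. Leaving out sham replicate 1, 2 or 3, or ischemia replicate 3, the log2 fold change was 4.69, 4.76, 4.88 or 4.93, with edgeR adjusted p-values of 0.159, 0.0861, 0.131 and 0.111, so that the call was lost. The call held without ischemia replicate 1 at 5.21 (edgeR adjusted p 0.0123) and without ischemia replicate 2, its highest library, at the lower value of 3.85 (0.0305). The ischemia libraries had the same order for Inhbb as for the summed myeloid markers, none of which was at 0 in any library, and the part of these cells in the result was not tested.

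The bases before the start of Inhbb and Bmp6 are shown because these are the ligands that passed the test. They are the 250 bases upstream of the gene start in RefSeq on build GRCr8, at chr13:33089374-33089623 on the minus strand for Inhbb and chr17:26675262-26675511 on the minus strand for Bmp6. Capitals mark matches on either strand to 6 motifs, namely the GC box (GGGCGG), AP-1 (TGANTCA), CRE (TGACGTCA), the TATA box (TATAAA), the ACGTG core of hypoxia elements and the CHOP-ATF composite (TGATGNAA).
Inhbb: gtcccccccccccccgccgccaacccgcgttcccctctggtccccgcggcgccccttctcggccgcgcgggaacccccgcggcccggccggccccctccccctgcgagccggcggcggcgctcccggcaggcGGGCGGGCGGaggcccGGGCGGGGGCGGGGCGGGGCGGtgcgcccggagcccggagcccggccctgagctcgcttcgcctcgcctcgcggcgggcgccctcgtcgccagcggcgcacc
Bmp6: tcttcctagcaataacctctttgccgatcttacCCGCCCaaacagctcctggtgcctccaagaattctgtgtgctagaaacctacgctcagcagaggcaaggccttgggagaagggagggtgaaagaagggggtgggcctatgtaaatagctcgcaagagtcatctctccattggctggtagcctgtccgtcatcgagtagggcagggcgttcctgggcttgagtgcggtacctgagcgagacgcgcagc

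The Inhbb window held 6 GC boxes, some of them overlapping, a motif found in 30.5% of all 33469 such windows, and its GC content of 86.8% was above that of 99.9% of them. The Bmp6 window held 1 GC box at a GC content of 56.4%, beside a median of 51.2% over all windows. Of the 10 ligands 9 had a window in the table, and Bmp2 had none. GC boxes were also found in ligands that did not pass, with 5 before 1 start of Gdf15 and 3 before Bmp4. AP-1, CRE and CHOP-ATF letters, present in 6.34%, 1.59% and 3.40% of all windows, were in none of the 9, and TATA box letters (12.9% of windows) stood 40 bases before the start of Inhba and 28 bases before 1 of the 2 starts of Gdf15. ACGTG letters (16.6% of windows) were found for Tgfb2 and Bmp4. These matches describe letters only.

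Inhba, the activin A chain, was the lowest of the 10 ligands in sham. Its FPKM was 0.191, 0.0726 and 0.0574 in sham and 0.188, 3.61 and 0.806 in ischemia, from 38, 16 and 11 counts and from 40, 692 and 147 counts. Ischemia replicate 1 lay within the sham range and the other ischemia libraries above it. Ischemia against sham gave a log2 fold change of 3.66 ± 1.11 (SE), edgeR adjusted p 0.0874, and a 95% interval from 0.98 to 6.33. Without ischemia replicate 1 it was 4.16 and passed (edgeR adjusted p 0.0287), and without ischemia replicate 2 it was 2.17 (0.176). Inhbb made up 76.8% to 93.5% of the summed FPKM of the 2 beta chains in sham and 92.0% to 96.6% in ischemia. The shares overlapped, while the sum itself went from 0.653 to 0.888 in sham to 5.47, 45.1 and 15.4 in ischemia.

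The TGF-beta isoforms share receptors but differ in where they are made, and TGF-beta 1 is the form stored in large amounts by platelets and leukocytes. Tgfb1 had an FPKM of 16.1, 24.5 and 24.1 in sham and 35.9, 100.3 and 62.1 in ischemia, so the groups did not overlap. The log2 fold change was 1.49 ± 0.40 (SE) and missed the threshold at an edgeR adjusted p of 0.0703, with a 95% interval from 0.52 to 2.46. Without ischemia replicate 1 it was 1.76 and passed (edgeR adjusted p 0.0258). The libraries of ischemia again ranked as for the summed myeloid markers, whose part was not tested. The 6 platelet markers summed to 22.0 to 55.7 FPKM in sham and 63.3 to 172.6 in ischemia, mostly from Pf4, and Ppbp, Gp9, Gp1ba and Gp6 were each at 0 in 1 library.

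Tgfb2, the isoform needed for heart valve formation in the embryo, had an FPKM of 11.2, 2.28 and 21.4 in sham and 13.7, 34.9 and 47.0 in ischemia. Sham replicate 2 was far below the other libraries, and sham replicate 3 lay above ischemia replicate 1. The log2 fold change of 1.46 ± 0.77 (SE) had an edgeR adjusted p of 0.228, and leaving out 1 library moved it to between 0.99 (without sham replicate 2) and 2.20 (without sham replicate 3). It was 0.998 without ischemia replicate 3 and 3.51 with sham replicate 2 as the only sham library. Tgfb3 had an FPKM of 40.1, 20.4 and 58.1 in sham and 18.3, 25.8 and 31.9 in ischemia. Its lowest library was ischemia replicate 1 and its highest was sham replicate 3, with overlap between the groups. On the log2 scale the difference was -0.68 ± 0.36 (SE), with 0.234 as its edgeR adjusted p, and it was 0.015 with sham replicate 2 as the only sham library.

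The share of Tgfb3 in the summed FPKM of the 3 isoforms did separate the groups. It was 59.5%, 43.3% and 56.1% in sham and 26.9%, 16.0% and 22.6% in ischemia, with means of 53.0% ± 8.56 (SD, n = 3) and 21.9% ± 5.47 (SD, n = 3). The highest ischemia share lay below the lowest sham share, and an exact permutation test reached its lowest possible p of 0.1. Tgfb1 took 23.9%, 51.9% and 23.3% in sham and 52.8%, 62.3% and 44.1% in ischemia, and sham replicate 2 lay within the ischemia range. Tgfb2 took 4.83% to 20.6% in sham and 20.2% to 33.3% in ischemia, which overlapped. As a share within a library it does not depend on the scaling of that library, and it shows unequal change of the isoforms only. Sham replicates 1 and 3, with the most atrial markers, had the lowest Tgfb1 shares, and the part of atrial tissue was not tested.

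**Figure D2:**
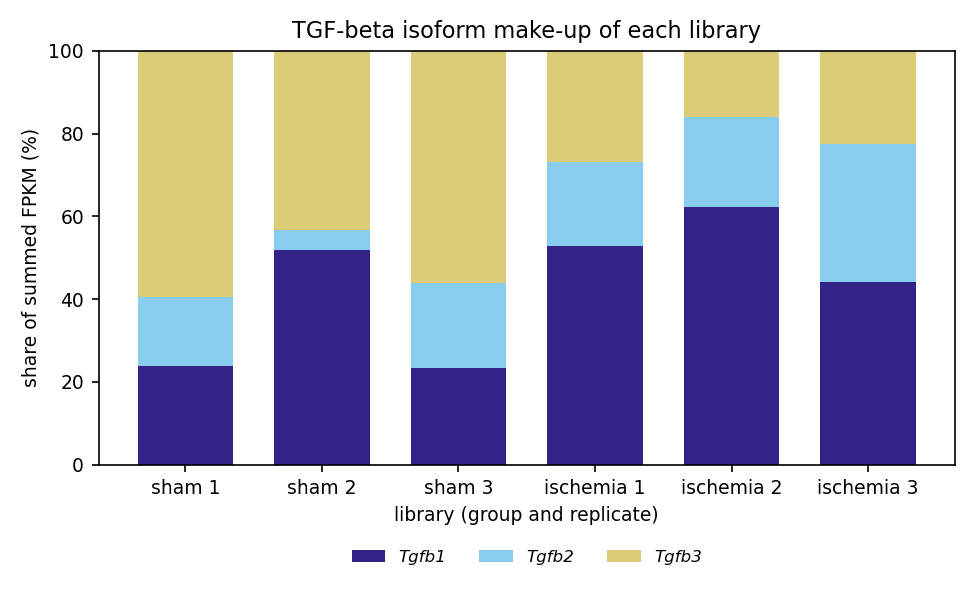
Share of Tgfb1, Tgfb2 and Tgfb3 in their summed FPKM, in percent, as 1 stacked bar per library. The Tgfb3 segment spans 43.3% to 59.5% in sham and 16.0% to 26.9% in ischemia.

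Gdf15, a stress-induced distant relative of TGF-beta, had an FPKM of 0.921, 0.501 and 1.33 in sham and 1.60, 10.95 and 1.74 in ischemia. Ischemia replicates 1 and 3 lay just above the sham range and ischemia replicate 2 far above it. These levels rested on 65, 38 and 89 sham counts, and on 121, 749 and 113 ischemia counts. Ischemia against sham gave a log2 fold change of 2.24 ± 0.83 (SE), edgeR adjusted p 0.125, and without ischemia replicate 2 it was 0.85 (0.292). The value thus rested mainly on 1 library, the one with the most myeloid markers, and the part of these cells was not tested. The GDF15 receptor gene Gfral was at 0 counts in all 6 libraries.

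Bmp6 occupies positions 26955142 to 27112820 of chromosome 17 (minus strand) in the table. Its FPKM was 14.8, 9.12 and 22.8 in sham and 5.27, 5.90 and 2.66 in ischemia. Each ischemia library was below each sham library, and the ischemia libraries differed less among themselves. The means were 15.6 ± 6.90 (SD, n = 3) and 4.61 ± 1.72 (SD, n = 3), for which edgeR gave a log2 fold change of -1.82 ± 0.38 (SE) at an adjusted p of 0.0459, close to the threshold. An exact permutation test reached its lowest possible p of 0.1. The call held without ischemia replicate 1 (-1.97, edgeR adjusted p 0.0406) and was lost when any other library was left out, with log2 fold changes from -2.03 to -1.51 and adjusted p-values from 0.0681 to 0.161. Hamp, the gene of the iron hormone hepcidin that BMP6 induces in the liver, had a log2 fold change of 1.39 with an edgeR adjusted p of 0.477.

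The summed levels of other cell markers are given beside Bmp6. The 5 epicardial and mesothelial markers summed to 106.2, 48.3 and 75.6 FPKM in sham and 32.3, 6.06 and 5.05 in ischemia, which did not overlap. Of the 5, 0 passed with edgeR as reported (1 at an unadjusted p under 0.05). DESeq2 called 1 lower, and limma called 2, 3 and 1 lower at pseudocounts of 0.1, 1 and 0.01. EdgeR called 1 lower with median-ratio scaling, at a mean FPKM of at least 5, with rows of repeated symbols summed and without ischemia replicate 2. Without ischemia replicate 1, 4 of these 5 passed, all lower, and 3 of the 5 fibroblast markers passed as well, also lower. Upk3b and Upk1b were at 0 in ischemia replicate 2, and Krt19 in ischemia replicate 3. The 5 fibroblast markers summed to 757.4, 330.3 and 891.0 in sham, the same order as Bmp6, and to 448.8, 235.2 and 186.9 in ischemia, which overlapped. Endothelial markers summed to 175.4 to 181.6 in sham and 151.2 to 182.9 in ischemia, which overlapped as well. The 6 cardiomyocyte markers summed to 25572, 30313 and 23778 in sham and 16050, 8139 and 14846 in ischemia, without overlap. Of the 6, 0 passed with edgeR as reported (3 at an unadjusted p under 0.05), against 3 lower calls with DESeq2 and 2 with limma. EdgeR called 2 lower at a mean FPKM of at least 5, and 1 with library totals alone or without ischemia replicate 1. Atrial markers, 6 in number, summed to 48514, 257.5 and 39331 in sham and 9656, 2086 and 1294 in ischemia, with overlap. With sham replicate 2 as the only sham library, the log2 fold change of Bmp6 was -1.30. The part of these cells and of atrial tissue in the Bmp6 result was not tested.

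Bmp10, made mainly by right atrial muscle in the adult heart, varied most among the libraries. Its FPKM was 3.0, 0.645 and 142.1 in sham and 0.484, 0.207 and 0.0766 in ischemia, from 304, 70 and 13664 counts and from 53, 21 and 8 counts. Sham replicate 3 alone held nearly all Bmp10 reads, and the lowest sham library was close to the highest ischemia library. The log2 fold change of -7.50 ± 2.23 (SE) had an edgeR adjusted p of 0.0839 and became -2.86 (0.171) without sham replicate 3. With sham replicate 2 as the only sham library it was -1.62, given as an effect size only. DESeq2 gave no p-value for this gene. Sham replicates 1 and 3 were the highest libraries for all 6 atrial markers, such as Myl7 with an FPKM of 6530 and 3541. Myl4 was higher in sham replicate 3 (7312 against 4937), as Bmp10 was, and the other 5 were higher in sham replicate 1. The part of atrial tissue in the group difference was not tested.

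Bmp2 and Bmp4 are closely related ligands of heart development. Bmp2 had an FPKM of 1.21, 0.715 and 1.72 in sham and 1.79, 5.85 and 4.26 in ischemia. These ranges did not overlap, although ischemia replicate 1 was only just above sham replicate 3. On the log2 scale the difference was 1.64 ± 0.47 (SE), with 0.0801 as its edgeR adjusted p, and it passed without ischemia replicate 1 (1.97, edgeR adjusted p 0.0241). Bmp4 had an FPKM of 9.47, 4.34 and 4.40 in sham and 4.47, 16.4 and 4.70 in ischemia. Apart from sham replicate 1 and ischemia replicate 2 the libraries were nearly level. The log2 fold change of Bmp4 was 0.38 ± 0.56 (SE) with a 95% interval from -0.97 to 1.73 and an edgeR adjusted p of 0.657, and it turned to -0.42 without ischemia replicate 2.

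Within the summed FPKM of the BMP ligands, Bmp2 took 4.25%, 4.83% and 1.01% in sham and 14.9%, 20.6% and 36.4% in ischemia, without overlap. Shares of Bmp4 (2.57% to 33.3% in sham, 37.2% to 57.9% in ischemia) and of Bmp10 (4.35% to 83.1% in sham, 0.655% to 4.03% in ischemia) did not overlap between the groups either. For each of the 3 the exact permutation p was 0.1, the lowest that is possible, and in sham replicate 3 all shares were set largely by Bmp10. Bmp6 was the leading BMP in sham replicates 1 and 2 (51.9% and 61.6%) and in ischemia replicate 1 (43.9%). Bmp10 led in sham replicate 3 with 83.1%, and Bmp4 led in ischemia replicates 2 and 3 with 57.9% and 40.2%.

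**Figure D3:**
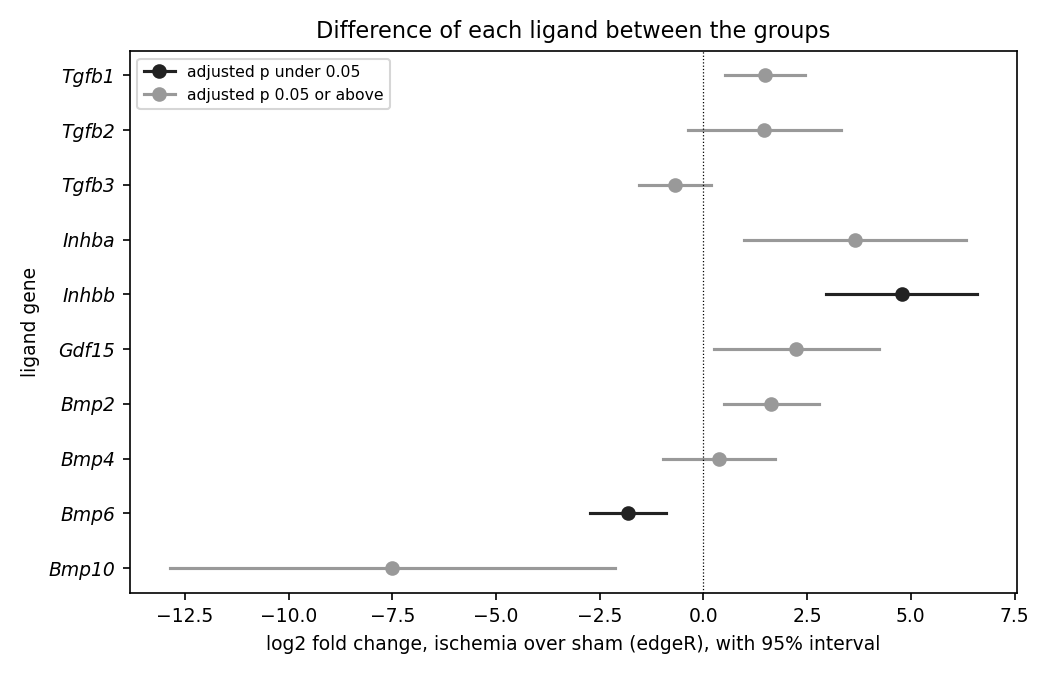
Log2 fold change of each ligand, ischemia over sham, from edgeR, with its 95% interval as a line, in black where the adjusted p was under 0.05. The intervals of Tgfb2, Tgfb3 and Bmp4 cross 0, and that of Bmp10 spans -12.86 to -2.14.

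The genes with the most similar profile over the 6 libraries were sought for each ligand by the root mean square difference of centred log2(FPKM + 0.1). For Inhbb they were Clec5a (0.163), a myeloid receptor, and Plaur (0.179), the urokinase receptor, beside an SD of 2.52 for Inhbb itself. For Tgfb1 the nearest was Fes (0.0932), a tyrosine kinase of myeloid cells. Inhba was closest to Areg, an EGF receptor ligand, and Atp8b4, Gdf15 to Arrdc3 and Arhgap15, and Bmp2 to Spire1 and S100a10. Tgfb2 was closest to Fbxl2 and Col12a1, Tgfb3 to Kif20a and Fam189a2, and Bmp4 to Rest and Sbno1. Bmp6 was closest to Scube1 and Cybrd1. The nearest genes to Bmp10, Sult4a1 (1.07) and the neuronal gene Stmn2 (1.12), were the least alike of these pairs. With 6 libraries such likeness is a description.

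The other genes of the pathway were taken from lists by role. Over 77 tested pathway genes, 8 were higher and 4 lower with edgeR, against 5.18% and 1.53% of all tested genes. An unadjusted p under 0.05 was seen for 30 of the 77 and for 4528 of all 13964 genes. Of 23 further ligands only 6 passed the filter on low values. None of these was called (0 at an unadjusted p under 0.05 with edgeR, 0 calls with DESeq2), with log2 fold changes from -2.16 for Gdf1, whose reads can be shared with the overlapping gene Cers1, to 2.73 for Gdf6. Of the ligands that were filtered out, Nodal, Inhbe and Bmp8b were at 0 in every library.

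Among 13 tested receptors and co-receptors 1 was called with edgeR (6 at an unadjusted p under 0.05). DESeq2 called 3 higher and 2 lower. Acvr1b, which encodes the type I receptor of activins (ALK4), had an FPKM of 7.39, 4.19 and 6.43 in sham and 18.2, 19.1 and 17.5 in ischemia. Levels after ligation were nearly equal and lay well above sham. Ischemia against sham gave a log2 fold change of 1.54 ± 0.18 (SE), edgeR adjusted p 0.0272. The TGF-beta receptors Tgfbr1, Tgfbr2 and Tgfbr3 had log2 fold changes of 0.31, 0.023 and -0.15. None of 6 Smads passed with edgeR (1 at an unadjusted p under 0.05, 1 call with DESeq2), and they ranged from -2.10 for Smad9 to 0.92 for Smad1 (edgeR adjusted p 0.0588).

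Of 11 tested genes for storage and release of the ligands, 1 was higher and 1 was lower. Thbs1, which encodes thrombospondin 1, an activator of latent TGF-beta, had an FPKM of 2.40, 1.29 and 3.71 in sham and 33.0, 341.5 and 102.7 in ischemia. It rose by 5.92 ± 0.95 (SE) on the log2 scale (edgeR adjusted p 0.0334), and by 4.80 without ischemia replicate 2, its highest library. Ltbp4, which tethers latent TGF-beta to the matrix, was at 125.5, 94.8 and 139.1 in sham and 68.1, 39.9 and 47.5 in ischemia. It fell, with a log2 fold change of -1.27 ± 0.28 (SE) and an edgeR adjusted p of 0.0485. The other 9 tested genes of this list, such as Furin, did not pass with edgeR, while DESeq2 called 2 higher and 2 lower among all 11.

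Among the secreted antagonists 1 of 11 tested genes was higher and 2 were lower with edgeR, against 2 higher and 2 lower with DESeq2. Fstl3, which binds activins, had an FPKM of 4.56, 3.11 and 6.47 in sham and 16.2, 48.8 and 65.5 in ischemia, and rose by 3.16 ± 0.55 (SE) on the log2 scale (edgeR adjusted p 0.0361). Its relative Fst had a log2 fold change of 1.19 with an edgeR adjusted p of 0.207. The BMP antagonists Nbl1 and Twsg1 fell, with log2 fold changes of -1.97 and -1.55 and edgeR adjusted p-values of 0.0478 and 0.0445. Nbl1 was at 39.1 to 75.0 FPKM in sham and 8.87 to 22.6 in ischemia. Of 10 intracellular inhibitors only Tgif1, a repressor of Smad transcription, passed as reported, at 2.37 ± 0.42 (SE) and an edgeR adjusted p of 0.0372. In this list 1 was higher and 1 lower with DESeq2, and with edgeR at a mean FPKM of at least 5 or without ischemia replicate 1. Smad6 and Smad7 had values of -0.73 and -0.14.

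Of 11 tested genes that commonly respond to TGF-beta and activin, 3 rose and 0 fell. Among them, Timp1 and Fn1 rose by 5.21 and 2.40 on the log2 scale, with edgeR adjusted p-values of 0.0110 and 0.0458. Col1a1, Acta2 and Tagln had negative values of -2.22, -1.78 and -1.43 without passing with edgeR, and their highest level was in sham replicate 3. With DESeq2 6 genes of this list were higher and 1, Col1a1, was lower. The median of the list was 1.74. Of 9 genes that respond to BMPs, Id1 rose by 1.20 on the log2 scale (edgeR adjusted p 0.0478) and Msx2 was lower at -2.08 (0.0443). The median of these 9 was -0.22, and DESeq2 called 1 higher and 2 lower. Both lists hold genes that other signals also control.

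**Figure D4:**
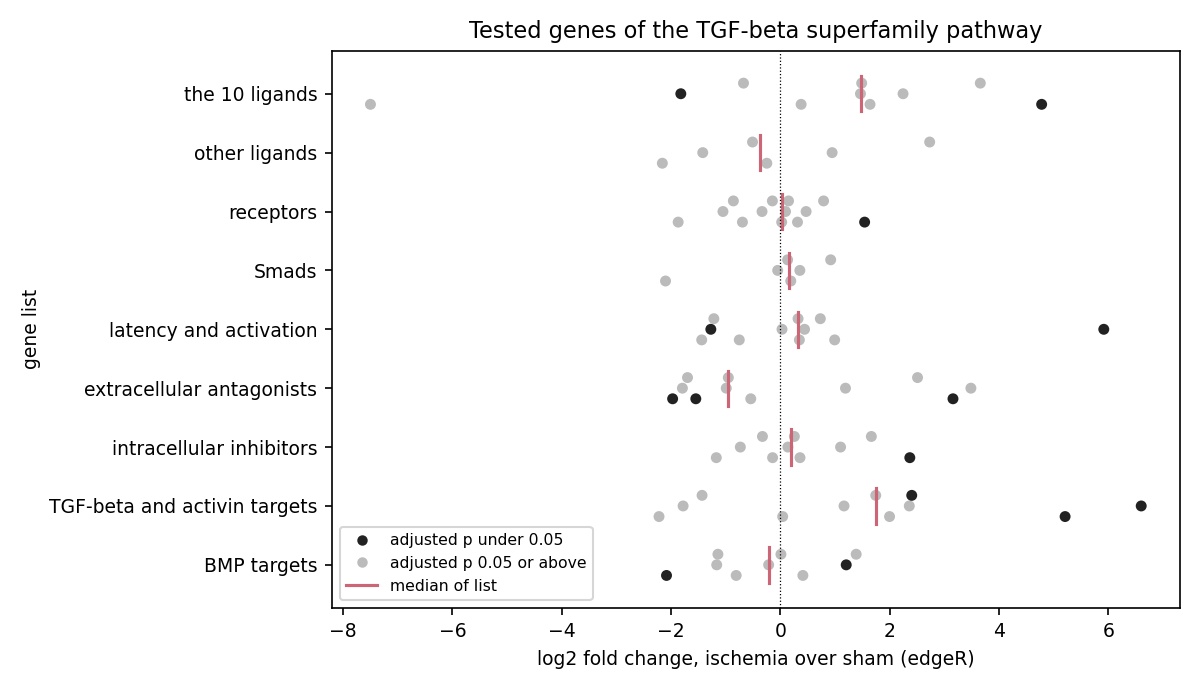
Log2 fold change, ischemia over sham, of each tested gene by list, in black where the edgeR adjusted p was under 0.05, with the list median as a red bar. Thbs1 at 5.92 lies far to the right among the called genes, and Bmp10 at -7.50 is the lowest without passing.

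None of the edgeR calls held in every fit that left out 1 library. Where no gene at all passed, a lost call does not single out any gene. Leaving out sham replicate 1, 2 or 3, or ischemia replicate 3, none of the 13964 genes passed with edgeR, although 3020 to 3809 had an unadjusted p under 0.05, and so none of the ligands or pathway genes did. Without ischemia replicate 1, 4 ligands were higher (Tgfb1, Inhba, Inhbb and Bmp2) and 1 was lower (Bmp6), in a fit that called 2605 of all 13964 genes (1490 higher and 1115 lower) in place of 937. Without ischemia replicate 2, Inhbb was the only ligand that passed, among 571 calls over all genes. The directions of Inhbb and Bmp6 were the same in all 19 alternative settings, from 3.26 to 5.21 and from -2.03 to -1.30. Among the called pathway genes, Acvr1b ranged from 1.41 to 1.82 and Timp1 from 4.91 to 5.33. Msx2 moved more, from -2.57 to -0.88.

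**Figure D5:**
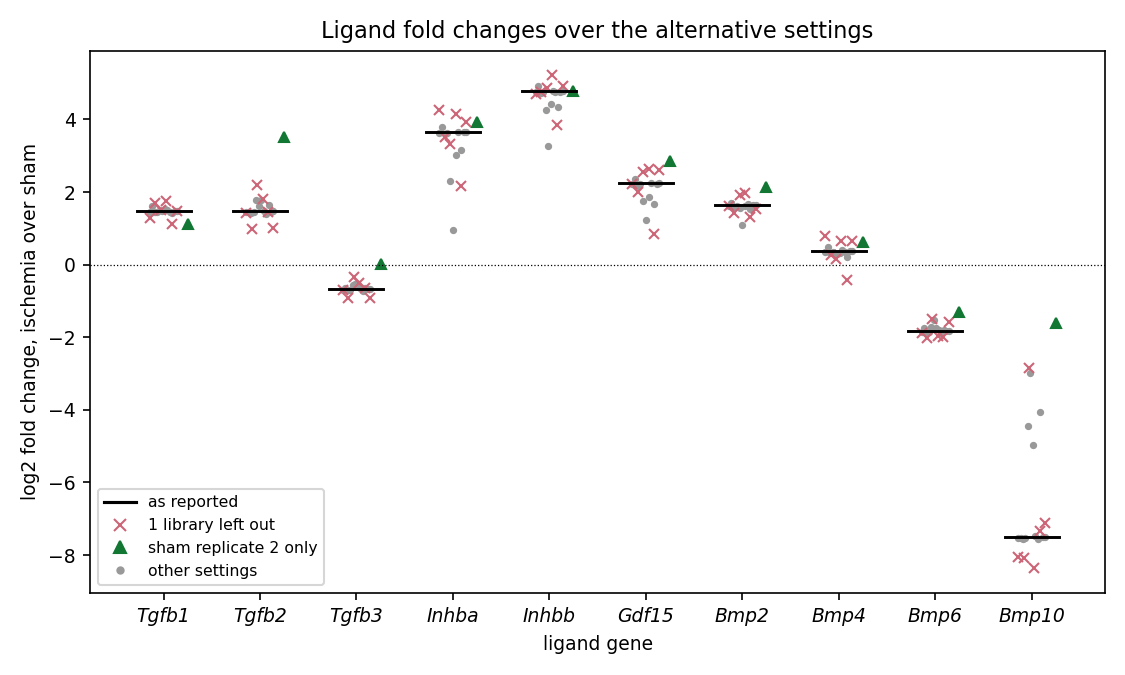
Log2 fold change of each ligand as reported (black bar), with 1 library left out (red crosses), with sham replicate 2 as the only sham library (green triangles) and in the other settings (grey points). Bmp10 ranges from -8.36 to -1.62, while Inhbb stays between 3.26 and 5.21.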

How the data were processed

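Raw counts per gene, deposited by the authors as whole numbers without normalization, and FPKM values computed by the authors came in 1 table of rat Ensembl genes. Per the labels, libraries were made with a stranded total RNA kit, and STAR and HTSeq are named among the tools. The genome build, versions and counting rule are not given in the sources used here. Genes without reads, listed at 0.0001 FPKM, were set to 0.

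Genes reaching 0.5 FPKM on average were tested with the edgeR quasi-likelihood test on counts scaled by TMM, ischemia against sham without covariates, with Benjamini-Hochberg adjustment over 13964 genes and a threshold of 0.05. Standard errors were derived from the F statistic. Single values were compared by two-sided exact permutation tests. The labels do not say that replicates come from separate animals, so p-values measure the spread between samples.

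The ligands and gene lists were chosen with earlier results of these data known. All 10 ligands are named. In each pathway list the called genes are named, or the highest and lowest where none was called, and for each ligand the 2 most similar genes. A called gene and a similar gene that these rules select are not reported here. Other pathway and marker genes were named after their values were seen. Same-numbered samples had correlations of deviations from -0.192 to -0.0530, so no pairing by number was seen. With so few samples these values cannot exclude a pairing. Alternatives were other scalings, filters and pseudocounts, limma, DESeq2, the replicate block, summed rows of repeated symbols, removal of the mitochondrial genome and left-out libraries. Of the other marker lists, 5 tested ventricular, 6 cardiomyocyte and 5 smooth muscle markers had medians of -0.067, -1.15 and -1.27. The 5 resident macrophage markers had a median of 0.072. The summed smooth muscle level was nevertheless higher in ischemia (1540 to 4757 FPKM against 915.9 to 1313). Summed ventricular markers were at 1799 and 1992 FPKM in sham replicates 1 and 3, 13498 in sham replicate 2 and 4660 to 9518 in ischemia. Without sham replicate 2 the ventricular median was 1.68, with 4 of the 5 at an unadjusted edgeR p under 0.05 and 0 called. Fits ran in edgeR 4.0.16, DESeq2 1.42.0 and limma 3.58.1 under R 4.3.3, and figures in matplotlib 3.10.9 under Python 3.11.15.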

Additional observations from a re-analysis of the deposited data

How the results depend on the processing

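Counts of ligands and pathway genes depended on the setting. Fits with 1 library left out gave 0 to 4 higher and 0 to 1 lower ligands, and 0 to 13 higher and 0 to 9 lower pathway genes. With the replicate block, and with sham replicate 2 as the only sham library, 0 and 0 ligands and 0 and 0 pathway genes passed, as did 0 of all 13964 genes with edgeR (3349 and 1707 at an unadjusted p under 0.05). In the fit with 1 sham library the spread comes from the 3 ischemia libraries and the lone sample is assumed to vary like them, so its counts say nothing about stability. Inhbb was at 4.35 and Bmp6 at -1.81 with the block. At an unadjusted p under 0.05 the block had 3 higher and 1 lower ligands and 27 pathway genes. DESeq2 gave 5 higher ligands (Tgfb1, Inhba, Inhbb, Gdf15 and Bmp2) and 16 higher and 10 lower pathway genes. Bmp6 lost its call, leaving 0 lower ligands, with library totals alone (1 lower pathway gene), with no expression filter (0 lower pathway genes) and with limma at each of 3 pseudocounts. Upper quartile scaling left 2 lower pathway genes. Library totals moved the median of all genes to 0.088 and limma on log2(FPKM + 0.1) to 0.084. Tgfb3 turned to 0.015 with sham replicate 2 as the only sham library, and Bmp4 to -0.42 without ischemia replicate 2, within a range of -0.42 to 0.78 over the fits that left out 1 library. The other 8 ligands kept their direction in every fit in which they were tested. The cause of these changes was not tested. With DESeq2, 2071 genes were higher and 1742 lower, a share of 54.3% higher against 77.2%, and library totals gave 86.0%. Gdf15, Bmp2 and Inhba were not tested at a mean FPKM of at least 5. Deviations from the group means correlated at -0.109 on average for equal replicate numbers and at 0.0527 for unequal ones.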
